A study of Arabidopsis thaliana with 18 samples.

Results

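IAA29 (AT4G32280) and HAT2 (AT5G47370) are auxin- and shade-regulated genes of Arabidopsis thaliana, and they were chosen by their locus, each through the single probe set that the platform annotation pairs with that gene alone. They are 2 of 16548 genes with such a probe set, and both were among the 5689 genes tested. The study compared wild-type Col-0 (labelled Col), the phyb-9 mutant, which lacks the photoreceptor phytochrome B (labelled phyb), a jaz10 mutant, lacking one of the JAZ repressors that hold back jasmonate responses (allele not given in the sources used here), and the jaz10 phyb-9 double mutant (labelled jaz10phyb). Plants were 4 weeks old and had grown in short days of 8 h light at 22 °C. They were sprayed with water as a mock (labelled Control) or with 250 µM methyl jasmonate (MeJA, an ester of the wound and defence hormone jasmonate) and harvested after 3 h. Each of the 18 single-colour Affymetrix arrays held RNA from a pool of at least 4 whole plants, and each phyb group had 3 arrays where the other 6 groups had 2. Nothing in the labels tells whether the pools were separate cultures, and p-values therefore cover the spread between pools only, which may be technical.

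Phytochrome B is the main red-light receptor of green plants. In its active form it enters the nucleus and lowers the activity of the PIF transcription factors, and in the shade of other leaves, or in a phyb mutant, PIFs activate genes of auxin synthesis, auxin response and elongation. IAA29 encodes an Aux/IAA protein, a class of short-lived repressors that bind auxin response factors and are degraded when auxin is perceived. HAT2 encodes a homeodomain-leucine zipper class II (HD-Zip II) transcription factor, a relative of the classical shade marker ATHB2, and its transcript is known to be raised by auxin. Jasmonate signalling favours defence over growth, and JAZ proteins restrain it until the hormone removes them. The factorial design sets the response to MeJA against PHYB and JAZ10 genotype.

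The deposited values are summarised probe set signals on a linear scale, with array medians between 14.87 and 17.5. Each array was given a MeJA score, for which the mean log2 level of 368 genes that fell with MeJA in Col, each centred on its mean, was taken from that of the 468 genes that rose. HAT2, which also fell there, was left out of the score. By this score 2 phyb arrays resembled the treatment opposite to their label. They were phyb Control 2, at 0.624 where replicates 1 and 3 were at -0.782 and -0.631, and phyb MeJA 3, at -0.693 where replicates 1 and 2 were at 0.675 and 0.267. Both are reported as labelled, and differences that rest on them are also given without both. They were doubted for their response to MeJA, so a MeJA call made without them, in phyb or averaged over genotypes, is not independent evidence. Transcripts of PHYB and JAZ10 were not analysed here, so the genotype labels were not checked. Of the leaf markers only RCA, the Rubisco activase, had a named probe set (signal 2826.73 to 3508.33). The root hair expansin EXPA7 lay between 4.8 and 6.9, although the labels say whole plant, and no flower marker on the list was named.

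HAT2 gave a moderate signal in every array. It measured 63.55 and 61.34 in Col Control, 36.42 and 50.9 in jaz10 Control, 92.98, 62.31 and 79.77 in phyb Control replicates 1 to 3, and 69.42 and 92.26 in jaz10phyb Control. After MeJA it measured 30.7 and 35.65 in Col, 36.52 and 38.95 in jaz10, 58.17, 67.24 and 60.47 in phyb, and 64.79 and 59.88 in jaz10phyb. All 5 MeJA arrays without PHYB therefore lay above all 4 with it, while in Control arrays the doubtful phyb Control 2 lay just below Col Control 1. Group means ran from 80.8 ± 16.2 (SD, here and for the other signal means, n = 2) in jaz10phyb Control and 78.4 ± 15.4 (n = 3) in phyb Control, through 62.4 ± 1.56 in Col Control, 62.3 ± 3.47 in jaz10phyb MeJA and 62 ± 4.72 (n = 3) in phyb MeJA, to 43.7 ± 10.2 in jaz10 Control, 37.7 ± 1.72 in jaz10 MeJA and 33.2 ± 3.5 in Col MeJA (n = 2). In that order the arrays of neighbouring groups overlapped, except between phyb MeJA and jaz10 Control and between jaz10 MeJA and Col MeJA.

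IAA29 gave a low signal. It measured 9.81 and 11.85 in Col Control, 8.15 and 8.87 in jaz10 Control, 57.4, 11.31 and 31.88 in phyb Control replicates 1 to 3, and 26 and 25.48 in jaz10phyb Control. After MeJA it measured 9.56 and 5.22 in Col, 5.87 and 6.16 in jaz10, 9.97, 25.72 and 23.09 in phyb, and 16.48 and 13.78 in jaz10phyb. The 4 groups with the highest means were those without PHYB. Their means were 33.5 ± 23.1 in phyb Control (n = 3), 25.7 ± 0.368 in jaz10phyb Control (n = 2), 19.6 ± 8.44 in phyb MeJA (n = 3) and 15.1 ± 1.91 in jaz10phyb MeJA (n = 2), and neighbours among them overlapped. Below them came Col Control (10.8 ± 1.44), jaz10 Control (8.51 ± 0.509), Col MeJA (7.39 ± 3.07) and jaz10 MeJA (6.02 ± 0.205, each n = 2), of which Col MeJA overlapped with both of its neighbours. The wide spread lay in phyb, where phyb Control 2 read 11.31, close to the 9.97 of phyb MeJA 1. This array lay below Col Control 2 (11.85), so the IAA29 Control arrays with and without PHYB overlapped. IAA29 passed the filter of a signal of at least 50 through 1 of 18 arrays, phyb Control 1, whereas HAT2 reached it in 13. Signal over background could not be tested, so the size of IAA29 differences is uncertain. In pools of whole plants, fewer cells that express a gene and less RNA per cell cannot be told apart.

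**Figure D1:**
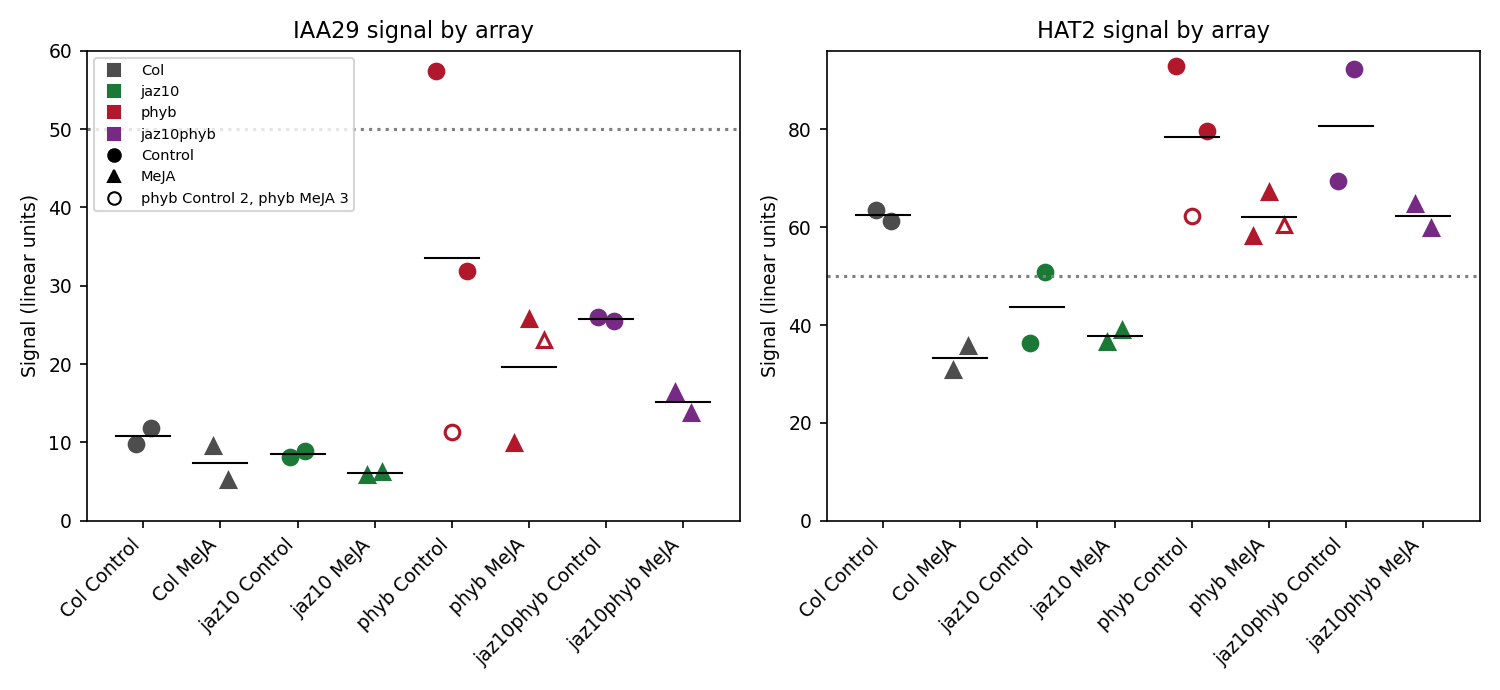
Signal of IAA29 (left) and HAT2 (right) on a linear scale in each array, by group. Circles are Control and triangles MeJA arrays, horizontal bars are group means, open symbols are the 2 doubtful phyb arrays, and the dotted line is the signal minimum of 50. IAA29 exceeds 50 in 1 array (57.4), and HAT2 after MeJA lies between 30.7 and 38.95 in Col and jaz10 and between 58.17 and 67.24 in phyb and jaz10phyb.

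Loss of PHYB went with more HAT2 and more IAA29 transcript. Averaged over the 4 comparisons (phyb with Col and jaz10phyb with jaz10, each in Control and MeJA), HAT2 was higher by 0.69 ± 0.09 (SE, here and below for differences on the log2(signal + 1) scale; 10 arrays without PHYB and 8 with it), or 1.62-fold (limma adjusted p = 0.000745; exact two-sided permutation p = 0.000556, labels permuted within treatment and JAZ10 genotype). IAA29 was higher by 1.3 ± 0.26, or 2.47-fold (limma adjusted p = 0.0135; exact two-sided permutation p = 0.00111). Both genes were thus called, against 3.96% of the 5689 genes tested in this comparison. Among those genes, 23 had a larger rise than HAT2. IAA29 entered the tested set only through an array without PHYB, where it is high, so its own standing among these genes is not read from that share. Without both doubtful arrays the differences were 0.74 ± 0.08 for HAT2 (limma adjusted p = 0.000138) and 1.42 ± 0.18 for IAA29 (limma adjusted p = 0.000268), where 9.09% of genes were called. The 2 calls held when any single array was left out, with 0.63 to 0.75 for HAT2 and 1.18 to 1.46 for IAA29. Because IAA29 signals are low, its difference depended on the constant added before taking logs and was 0.66 with 16 in place of 1.

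**Figure D2:**
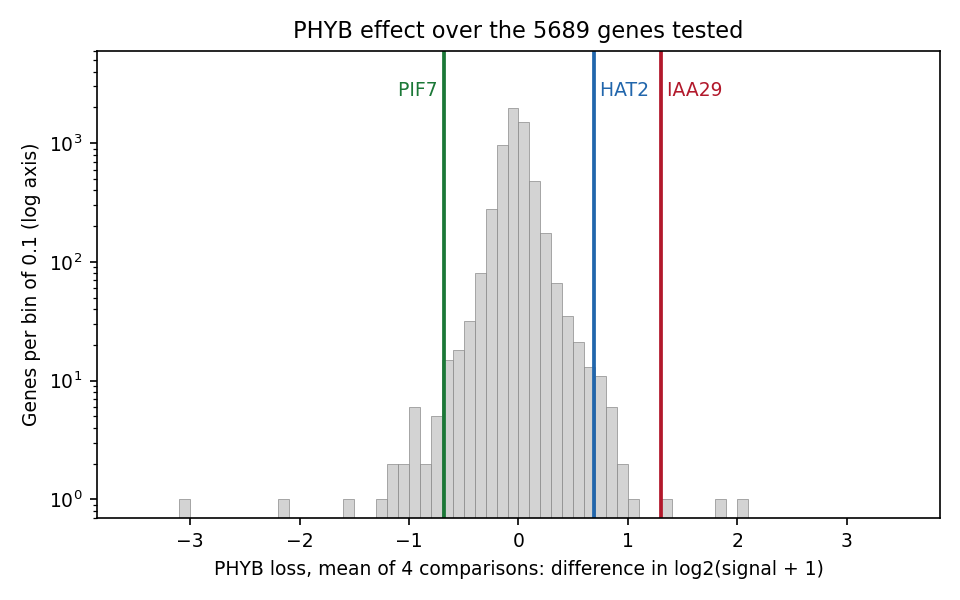
Difference between plants without and with PHYB, mean of 4 comparisons on the log2(signal + 1) scale (x axis), as a histogram over the 5689 genes tested with a log count axis. Vertical lines mark IAA29 at 1.3, HAT2 at 0.69 and PIF7 at -0.68. Over all genes the values run from -3.04 to 2.08, with a median of -0.024.

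Split by treatment, the direction was the same in Control and MeJA plants. In MeJA plants HAT2 differed by 0.8 ± 0.13 over both JAZ10 backgrounds (limma adjusted p = 0.00899, with 1.72% of genes called) and IAA29 by 1.22 ± 0.37 (limma adjusted p = 0.126). Neither gene had overlapping arrays there, with HAT2 at 58.17 to 67.24 without PHYB and 30.7 to 38.95 with it, and IAA29 at 9.97 to 25.72 and 5.22 to 9.56. Such a separation with higher values without PHYB was seen for 2.64% of the genes tested. The standing of IAA29 is not read from this share or those below, because it entered the tested set only through phyb Control 1. In Control plants HAT2 differed by 0.59 ± 0.13 (limma adjusted p = 0.0461, with 1.27% of genes called) and IAA29 by 1.39 ± 0.37 (limma adjusted p = 0.106). The HAT2 call in Control plants was lost without any one of 15 arrays, all but phyb Control 2, phyb MeJA 3 and jaz10 Control 2, with values of 0.47 to 0.69 and the highest limma adjusted p at 0.232. For IAA29 the doubtful phyb Control 2 (11.31) was the lowest Control array without PHYB. An IAA29 call in Control plants made without it is therefore not independent evidence. Without both doubtful arrays IAA29 differed by 1.69 ± 0.25 in Control plants (limma adjusted p = 0.00245, 2.85% of genes called). In MeJA plants it differed by 1.14 ± 0.25 (limma adjusted p = 0.0175, 5.84% of genes called), and HAT2 stayed called in both treatments. Of these, the IAA29 call in MeJA plants was lost when Col MeJA 2 (0.95), jaz10 MeJA 1 (1.12), jaz10 MeJA 2 (1.15) or jaz10phyb MeJA 1 (1.08) was also left out, with limma adjusted p between 0.0566 and 0.0804.

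In the single comparisons the one call was HAT2 in phyb against Col after MeJA. It was higher by 0.88 ± 0.17 (limma adjusted p = 0.0369; n = 3 and 2 arrays; 0.967% of genes called), and by 0.9 ± 0.17 without both doubtful arrays (limma adjusted p = 0.013; 2.81% called). The call was lost without any 1 of 10 arrays, namely each Col, jaz10 MeJA and jaz10phyb MeJA array, phyb MeJA 2 and phyb MeJA 3, with values of 0.78 to 0.99, and without both doubtful arrays when Col MeJA 1 (0.79) or phyb MeJA 2 (0.8) was also left out. Without JAZ10 the difference between jaz10phyb and jaz10 was 0.71 ± 0.19 after MeJA (limma adjusted p = 0.224; 0.0527% called) and 0.88 ± 0.19 in Control plants (limma adjusted p = 0.139; 0.0703% called; n = 2 arrays per group). The Control value was called without both doubtful arrays (limma adjusted p = 0.0287; 0.58% called), and lost that call when jaz10 Control 1 (0.64), jaz10phyb Control 2 (0.68), jaz10phyb Control 1 (1.08) or either jaz10 MeJA array (0.88) was left out too. Between phyb and Col in Control plants HAT2 differed by 0.3 ± 0.17 (limma adjusted p = 0.49; 0.475% called), and by 0.46 ± 0.17 without both doubtful arrays (limma adjusted p = 0.291).

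For IAA29 the 4 single differences with 18 arrays were 1.28 ± 0.5 (phyb against Col) and 1.49 ± 0.55 (jaz10phyb against jaz10) in Control plants, and 1.24 ± 0.5 and 1.2 ± 0.55 after MeJA, and none passed the test (limma adjusted p between 0.272 and 0.621). Without both doubtful arrays, and so without the low phyb Control 2, phyb differed from Col in Control plants by 1.89 ± 0.35. This was called (limma adjusted p = 0.021; 1.02% called) but is not independent evidence. The call was lost without Col Control 1 (1.77), Col Control 2 (2.02) or phyb Control 1 (1.48) in addition. After MeJA the same comparison gave 1.08 ± 0.35 in that fit (limma adjusted p = 0.137). The differences between jaz10phyb and jaz10 kept their values with a smaller SE of 0.35 and were not called (limma adjusted p = 0.0819 in Control and 0.151 after MeJA). Against Col, the double mutant differed by 1.18 ± 0.55 in Control plants and by 0.99 ± 0.55 after MeJA for IAA29 (limma adjusted p = 0.651 and 0.446), and by 0.35 ± 0.19 and 0.89 ± 0.19 for HAT2 (limma adjusted p = 0.723 and 0.0651; 0.229% and 0.492% called). The last of these was called without both doubtful arrays (limma adjusted p = 0.014; 3.25% called) and lost the call when any Col MeJA or jaz10phyb MeJA array was left out as well (0.79 to 1). These comparisons share the Col arrays. Whether the PHYB effect differed with JAZ10 genotype was tested directly. The difference of the differences was 0.08 ± 0.52 for IAA29 (95% interval -1.05 to 1.21) and 0.2 ± 0.18 for HAT2 (-0.19 to 0.6), and neither passed (limma adjusted p = 1 for both; 0.0879% called). It was, with both doubtful arrays left out, -0.14 ± 0.35 for IAA29 and 0.12 ± 0.17 for HAT2 (limma adjusted p = 0.959 and 0.915; 0.211% called).

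**Figure D3:**
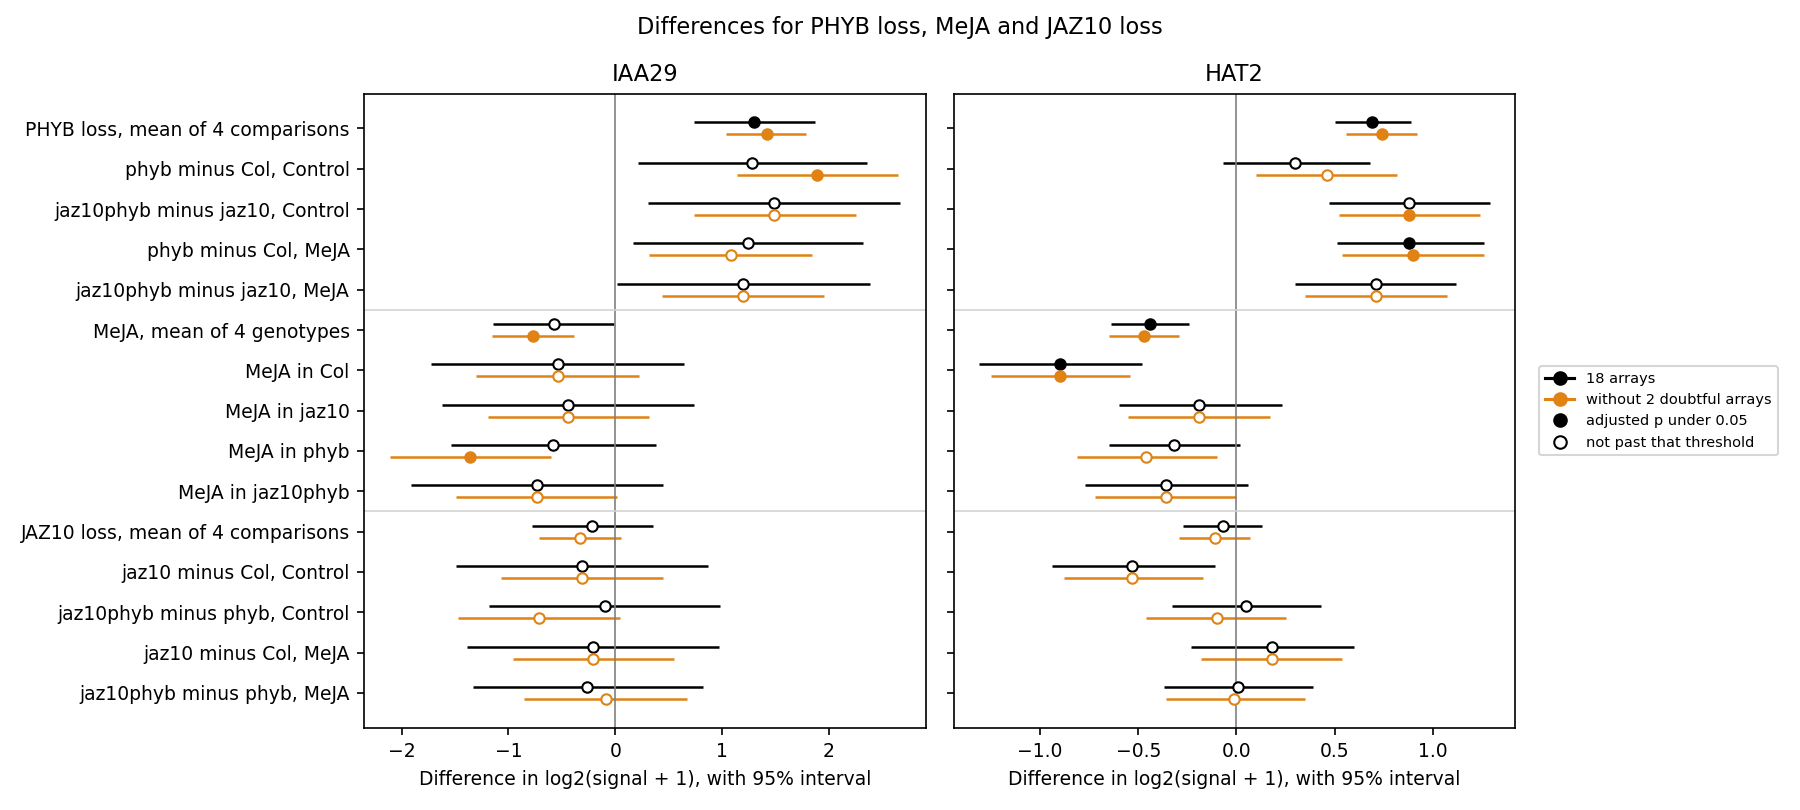
Differences in log2(signal + 1) with 95% intervals from limma for IAA29 (left) and HAT2 (right). Black is the fit of 18 arrays and orange the fit without the 2 doubtful phyb arrays, and filled points have an adjusted p under 0.05. The PHYB differences lie right of 0, up to 1.89 for IAA29, and the MeJA differences lie left of 0, down to -1.36 for IAA29 in phyb and -0.9 for HAT2 in Col.

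MeJA went with less HAT2. Averaged over the 4 genotypes HAT2 fell by 0.44 ± 0.09 (limma adjusted p = 0.00271; exact two-sided permutation p = 0.00417, labels permuted within genotype; 9 arrays per treatment). The call held without any single array (-0.5 to -0.38) and without both doubtful arrays (-0.47 ± 0.08, limma adjusted p = 0.000341). MeJA moved a large part of the table, with 39.1% of genes called in this comparison and 50.7% without the 2 arrays, and HAT2 ranked 692 of 5689 by p. IAA29 differed by -0.57 ± 0.26 and did not pass (limma adjusted p = 0.0984; exact two-sided permutation p = 0.0181). It was called without both doubtful arrays (-0.77 ± 0.18, limma adjusted p = 0.00243) and without phyb Control 2 alone (-0.73, limma adjusted p = 0.00555). Of the 4 genotypes in that average only phyb holds the arrays left out, and its value moved from -0.58 to -1.36.

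Of the 4 genotypes, HAT2 fell past the threshold in Col, by 0.9 ± 0.19 or to 0.537 of its Control signal (limma adjusted p = 0.0275; 14.7% of genes called; n = 2 arrays per group). The Col arrays did not overlap, at 63.55 and 61.34 against 30.7 and 35.65. The share of all genes separated in this way in Col was not counted. Leaving out 1 of the 4 Col arrays, whichever it was, ended the call (-1 to -0.79, limma adjusted p up to 0.136), and held without both doubtful phyb arrays (limma adjusted p = 0.00128; 31.1% called). In jaz10 HAT2 differed by -0.19 ± 0.19 (limma adjusted p = 0.559; 8.74% called, and 24.6% without both doubtful arrays), in jaz10phyb by -0.36 ± 0.19 (limma adjusted p = 0.28; 0.0352% called, and 18.6% without both) and in phyb by -0.32 ± 0.16 (limma adjusted p = 0.962; 0% called, with 198 genes at an unadjusted p under the threshold; n = 3 arrays per group). Without both doubtful arrays the value in phyb was -0.46 ± 0.17 (limma adjusted p = 0.0791; 16.3% called).

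IAA29 had the same sign in every genotype, with -0.54 ± 0.55 in Col, -0.44 ± 0.55 in jaz10, -0.58 ± 0.45 in phyb and -0.73 ± 0.55 in jaz10phyb, and none passed (limma adjusted p between 0.446 and 0.962). With 2 arrays per group, its Control and MeJA arrays did not overlap in Col, jaz10 or jaz10phyb. The share of all genes separated in this way was not counted, so this is not read as support for a fall. In phyb the Control and MeJA arrays overlapped through the 2 doubtful arrays. Without these IAA29 fell there by 1.36 ± 0.35, from 57.4 and 31.88 to 9.97 and 25.72 (limma adjusted p = 0.0176). That call was lost when phyb Control 1 (-0.94, limma adjusted p = 0.181) or phyb MeJA 1 (-0.71, limma adjusted p = 0.239) was left out as well.

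No difference in MeJA response between genotypes passed the test for either gene. For HAT2 the response differed between phyb and Col by 0.58 ± 0.25 (95% interval 0.05 to 1.11, limma adjusted p = 0.299) and between jaz10 and Col by 0.71 ± 0.27 (0.13 to 1.29, limma adjusted p = 0.757). The former was, in the fit without both doubtful arrays, 0.44 ± 0.24, with an interval that includes 0 (-0.07 to 0.95, limma adjusted p = 0.624). In both cases HAT2 was lowered less than in Col by point estimate. In mock-sprayed plants it was at 62.4 in Col Control and 43.7 in jaz10 Control. Averaged over both JAZ10 backgrounds, the response without PHYB differed from that with it by 0.2 ± 0.18 for HAT2 (-0.19 to 0.6) and by -0.17 ± 0.52 for IAA29 (-1.3 to 0.96), with limma adjusted p of 0.673 and 0.926. With both doubtful arrays left out these were 0.14 ± 0.17 and -0.56 ± 0.35 (limma adjusted p = 0.863 and 0.663). Over the 5 genotype pairs and this average the share of genes called was at most 0.0176% with 18 arrays and 0.193% without both doubtful ones, so few genes of the table passed these tests.

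After MeJA, plants without PHYB had about as much HAT2 as mock-sprayed Col. The comparison, chosen after the values were seen, gave -0.01 ± 0.17 for phyb MeJA against Col Control (95% interval -0.39 to 0.36) and 0 ± 0.19 for jaz10phyb MeJA (-0.42 to 0.41). The intervals are wide enough to hold differences of up to 0.42 either way. For IAA29 the same comparisons gave 0.7 ± 0.5 (-0.37 to 1.78) and 0.45 ± 0.55 (-0.73 to 1.63). In the fit of 16 arrays, which leaves out both doubtful ones, phyb MeJA differed from Col Control by 0 ± 0.17 for HAT2 (-0.36 to 0.36) and by 0.54 ± 0.35 for IAA29 (-0.22 to 1.3).

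Loss of JAZ10 gave no called difference in either gene. Averaged over 4 comparisons it was -0.07 ± 0.09 for HAT2 (95% interval -0.27 to 0.13; limma adjusted p = 0.91; exact two-sided permutation p = 0.582) and -0.22 ± 0.26 for IAA29 (-0.78 to 0.35; limma adjusted p = 0.9; exact two-sided permutation p = 0.39), where 0.0176% of genes were called. These were, on leaving out both doubtful arrays, -0.11 ± 0.08 and -0.33 ± 0.18 (limma adjusted p = 0.697 and 0.568; 0.387% called). In jaz10 Control HAT2 was at -0.53 ± 0.19 from Col (-0.94 to -0.11, limma adjusted p = 1, unadjusted p = 0.0165; 0% of genes called, 181 at an unadjusted p under the threshold). The Control arrays of jaz10 (36.42 and 50.9) lay below both of Col, a separation whose share over all genes was not counted. In the phyb background the double mutant differed from phyb in HAT2 by 0.05 ± 0.17 in Control plants and 0.01 ± 0.17 after MeJA, and in IAA29 by -0.1 ± 0.5 and -0.26 ± 0.5 (limma adjusted p between 0.889 and 0.994). Without both doubtful arrays the IAA29 values were -0.71 ± 0.35 in Control plants (95% interval -1.47 to 0.04, limma adjusted p = 0.659) and -0.09 ± 0.35 after MeJA, and the HAT2 values -0.1 ± 0.17 and -0.01 ± 0.17.

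Within the phyb groups IAA29 could be set beside the MeJA score of each array. There, IAA29 was 57.4 and 31.88 in the arrays labelled Control with scores of -0.782 and -0.631, and 11.31 in the one with 0.624. In phyb MeJA it was 9.97 at a score of 0.675, 25.72 at 0.267 and 23.09 at -0.693. In both phyb groups the array with the highest score had the lowest IAA29 signal. In Col Control, Col MeJA and jaz10phyb MeJA, too, the array with the higher score had the lower IAA29 signal. The reverse was seen in jaz10 Control (scores of -0.588 and -0.794), jaz10 MeJA and jaz10phyb Control. For HAT2 the array with the higher score had the higher signal in the Col and jaz10 groups and the lower signal in the jaz10phyb groups. Within phyb, HAT2 was 92.98, 79.77 and 62.31 in Control replicates 1, 3 and 2. It was 58.17, 67.24 and 60.47 in MeJA replicates 1 to 3, so that the doubtful phyb MeJA 3 did not stand out. What set the score of the 2 doubtful arrays was not tested.

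**Figure D4:**
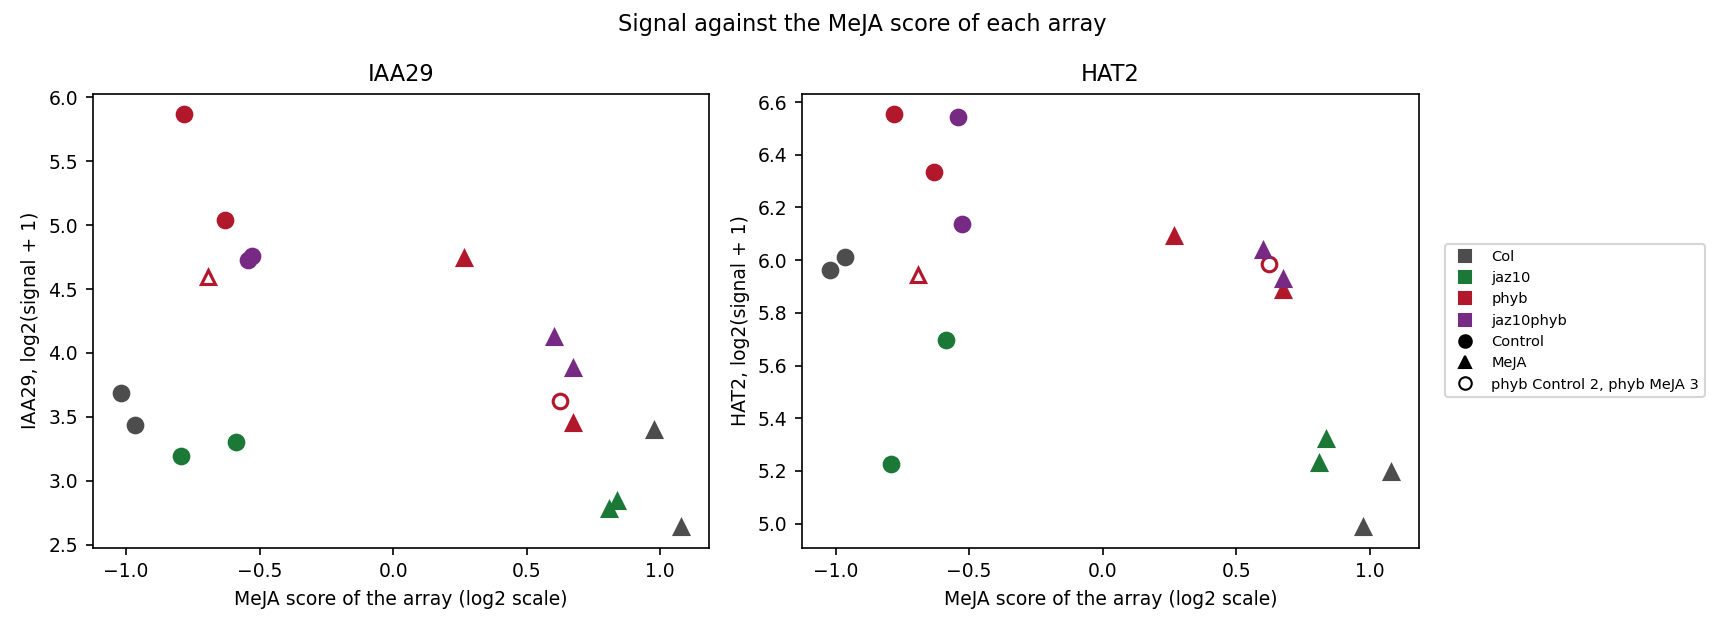
log2(signal + 1) of IAA29 (left) and HAT2 (right) against the MeJA score of each of the 18 arrays. Colours are genotypes, circles Control, triangles MeJA, and open symbols the 2 doubtful phyb arrays, whose scores of 0.624 and -0.693 lie on the side of the other treatment. At scores above 0, phyb and jaz10phyb arrays lie above those of Col and jaz10 for both genes.

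Both genes varied together across the arrays of phyb and jaz10phyb. Because the arrays fell apart by PHYB genotype, the correlation was taken within each class and 2 relations were tested. Among the 10 arrays of phyb and jaz10phyb, Pearson's r between IAA29 and HAT2 was 0.804 (permutation p = 0.00268, 0.00536 after Benjamini-Hochberg adjustment) and Spearman's rho 0.867 (permutation p = 0.00222). It was 0.625 without the 2 arrays farthest from the IAA29 median and 0.849 without the 2 doubtful arrays (exact permutation p = 0.00422). Among the 8 arrays of Col and jaz10, r was 0.602 (exact permutation p = 0.124, also after adjustment), rho 0.548 (exact permutation p = 0.171), and r without the 2 farthest arrays 0.515. The arrays in each class share the treatment contrast and were permuted across treatments and genotypes. A response of both genes to MeJA therefore enters r and these p-values. The relation within treatment groups was not tested.

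**Figure D5:**
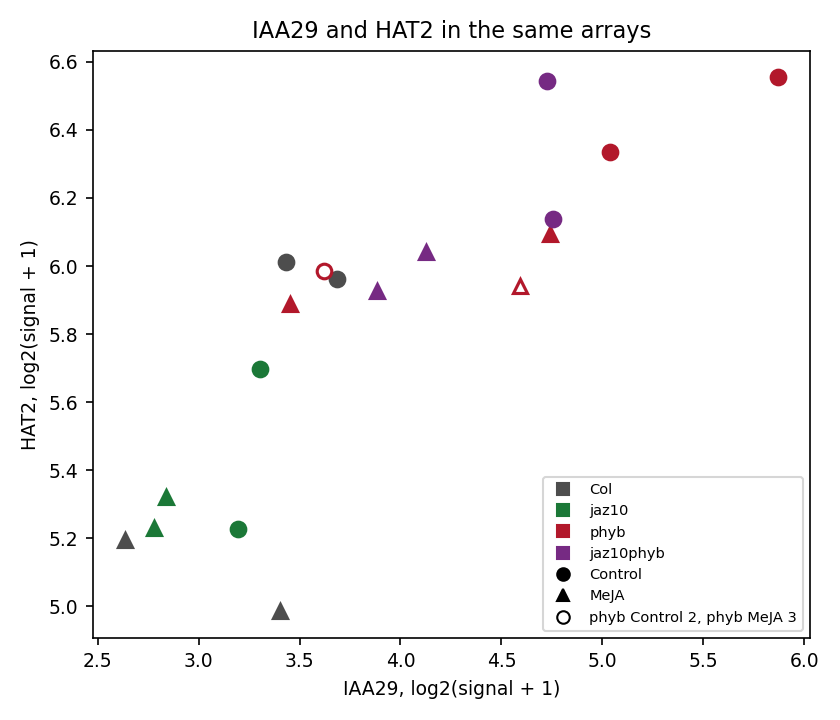
HAT2 against IAA29 in the same 18 arrays, both as log2(signal + 1). Colours are genotypes, circles Control, triangles MeJA, open symbols the 2 doubtful phyb arrays. Arrays of phyb and jaz10phyb (r of 0.804, n = 10) lie towards the upper right and those of Col and jaz10 (r of 0.602, n = 8) towards the lower left.

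As a description over all 18 arrays, which share the PHYB and MeJA contrasts, the gene most like HAT2 of 5688 was ATSBT5.2 (AT1G20160), which encodes a subtilisin-like serine protease (r of 0.896). It was followed by AT5G49900 (0.856), AT4G36550 and AT4G17100 (0.846 each) and FDH (AT5G14780, 0.845), the mitochondrial formate dehydrogenase, with IAA29 next at rank 6 (0.844). The genes most like IAA29 were AT1G80130 (0.895), AT1G30630 (0.878), ATSBT5.2 (0.876), AT3G46600 (0.871) and AT2G25510 (0.87), with HAT2 at rank 11. ATSBT5.2 stood in both lists. Its signal was 64.89 to 125.41 without PHYB and 58.68 to 68.8 with it in Control arrays, and 54.88 to 92.06 and 40.36 to 47.59 after MeJA. It was higher without PHYB by 0.72 ± 0.12 (limma adjusted p = 0.0036) and fell by 0.47 with MeJA (limma adjusted p = 0.00656). Without the 2 doubtful arrays ATSBT5.2 was still first for HAT2 (0.913, n = 16) and at rank 4 for IAA29 (0.872), and HAT2 and IAA29 had r of 0.861 with each other.

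Few other genes of the pathway could be read. Lists of shade, phytochrome and auxin genes and of tissue markers held 136 genes, and only 21 of them were paired with a probe set of their own. The signal minimum left 4, namely IAA29, HAT2, RCA and PIF7. Classical shade markers such as ATHB2, PIL1 and HFR1 and the auxin receptors, carriers and response factors were not analysed here. PIF7 (AT5G61270), a PIF that drives shade responses, went the other way from IAA29 and HAT2 with PHYB loss, though not with MeJA. Its signal was 78.57 to 120.16 without PHYB and 139.06 to 146.62 with it in Control arrays, and 55.37 to 108.36 and 103.15 to 129.74 after MeJA. It was lower without PHYB by a mean of -0.68 ± 0.1 (limma adjusted p = 0.00122; without both doubtful arrays -0.68 ± 0.08, limma adjusted p = 0.000129) and fell with MeJA by 0.3 ± 0.1 (limma adjusted p = 0.0261), a call not made in the fit without a signal filter (limma adjusted p = 0.0542).

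The other named pathway genes lay below the signal minimum in all arrays and were tested in a fit without a filter, which covered 16548 genes, 1.24% of them called for PHYB loss and 15.1% for MeJA. There IAA29 was the 1 of 8 named Aux/IAA genes called for PHYB loss (limma adjusted p = 0.0157), and the median of the 8 was 0, against -0.002 over all genes. IAA15, IAA18, IAA20, IAA30, IAA31, IAA33 and IAA34 lay between -0.17 and 0.27. IAA18 (0.33 ± 0.09, limma adjusted p = 0.0219) and IAA33 (0.48 ± 0.11, limma adjusted p = 0.00635), both named after their values were seen, rose with MeJA. IAA29 had a negative value that did not pass in this fit (-0.57 ± 0.25, limma adjusted p = 0.147). It was called there without both doubtful arrays (-0.77, limma adjusted p = 0.00622), which is not independent evidence. IAA20 (-0.13) and IAA30 (-0.33) were also negative and did not pass, and IAA15, IAA31 and IAA34 lay between 0.03 and 0.19 without passing. The median was 0.1 for the 8 genes and -0.011 over all genes. Of 5 auxin-induced GH3 genes, GH3.5, whose enzyme joins amino acids to auxin and salicylate, was called for PHYB loss (0.65 ± 0.09, limma adjusted p = 0.00121, named after its values were seen). Its signal was 12.81 to 19.37 without PHYB and 7.39 to 10.31 with it in Control arrays, and 11.58 to 18.43 and 8.54 to 9.83 after MeJA, so the classes did not overlap. The share of the 16548 genes separated in this way was not counted. GH3.1, GH3.3, GH3.4 and GH3.17 lay between 0.07 and 0.34 and did not pass, and the list's median was 0.15. For MeJA none of the 5 passed, with a list median of -0.01. GH3.3, named after its values were seen, was at 0.56 ± 0.2 for MeJA (limma adjusted p = 0.0783). Without both doubtful arrays it was at 0.76 (limma adjusted p = 0.000187), a call that is again not independent evidence. The 3 named auxin synthesis genes YUC2, YUC4 and YUC6 did not pass for either factor (list median -0.09 for PHYB loss and -0.09 for MeJA). On the list of shade-induced genes the only named ones besides IAA29 and HAT2 were YUC2 and WAG2. For PHYB loss they were at 0.19 ± 0.13 and 0.01 ± 0.07 and did not pass (limma adjusted p = 0.604 and 0.988). WAG2 did not pass for MeJA either (-0.11 ± 0.07, limma adjusted p = 0.392). At signals of this size a lack of a call says little about the transcripts.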

How the data were processed

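RNA from 18 pools of whole plants was measured on Affymetrix Arabidopsis Gene ST arrays. The deposited values are probe set signal intensities (38408 probe sets), not logged as far as their range shows. The authors obtained them from Affymetrix Expression Console, as the submitters' processing notes record. Not given in the sources used here are its version, the summarisation and the genome build. A platform annotation paired 16722 probe sets with 1 gene, 759 with several and 20927 with none, and names were updated through a TAIR10.1 gene table.

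Values were taken as log2(signal + 1). Following the study's own signal minimum, a probe set was kept if 1 array or more reached 50, and each gene was read by its probe set of highest mean. Groups came from the sample titles. limma 3.58.1 in R 4.3.3 fitted a mean for each of the 8 groups (10 residual degrees of freedom, 8 without the 2 doubtful arrays), with 28 contrasts and Benjamini-Hochberg adjustment over 5689 genes, called at an adjusted p under 0.05. The number of arrays limits the precision. Averaged differences also had exact permutation tests within strata. The alternatives were a different filter, pseudocount, set of probe sets, normalization, moderation or set of groups, a replicate block, and arrays left out.

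The members and gene lists were chosen with earlier results of these data known. Named were both members, the 5 genes most correlated with each, and up to 4 called genes of each list. No 2 arrays held identical values.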

Additional observations from a re-analysis of the deposited data

How the results depend on the processing

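The averaged differences for PHYB, MeJA and JAZ10 loss kept their direction under every alternative run. The calls of HAT2 for PHYB loss and MeJA and of IAA29 for PHYB loss were kept throughout. IAA29 for MeJA became called when both doubtful arrays were dropped (-0.77), or phyb Control 2 by itself (-0.73; range -0.73 to -0.45 with single arrays left out, and -0.93 to -0.61 with both doubtful arrays and a further one left out, an alternative added after the data were seen); the cause was not tested. A filter at 100 left neither gene and gave no value. Same-numbered arrays deviated together (correlation over 0.1) in 11 of 57 pairs, with correlations from -0.721 to 0.602 and a median of 0.0323. In groups of 2 arrays the deviations from the group mean mirror each other, so these correlations cannot tell whether replicate numbers pair the arrays. With the replicate block the averaged PHYB difference was 1.24 for IAA29 and 0.69 for HAT2, and the HAT2 calls for phyb against Col after MeJA (0.88) and for PHYB loss in Control plants (0.59) were lost. Both were lost too without a filter and with all probe sets tested, where more features are adjusted for, and with only the compared groups fitted, and the second also with array centring (0.62). With quantile normalization or centring, HAT2 in jaz10phyb against Col after MeJA became called (1.04 and 1.06). Fits of only the compared groups called IAA29 for MeJA in jaz10 and jaz10phyb. They also called it for jaz10phyb against jaz10 in both treatments and against Col in Control. HAT2 was called there in jaz10phyb against jaz10 and Col after MeJA. Each of these fits held 2 arrays per group and no array of the phyb single mutant, and why the calls arose was not tested. The share of genes called in them is not given here, so they are not read as support. IAA29 entered the tested set only through phyb Control 1, which is in none of them.

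Signs that turned belonged to differences that passed in no setting. IAA29: PHYB effect between backgrounds (-0.04 with pseudocount 16, -0.14 without both doubtful arrays, -0.22 to 0.34 leaving out single arrays), response of phyb minus Col (0.08 with centring, -0.65 to 0.47), jaz10phyb minus phyb in Control (0.03 with the replicate block, -0.71 to 0.41), response of jaz10phyb minus phyb (0.62 without both, -0.67 to 0.46), response of jaz10 minus Col (-0.28 to 0.48), of jaz10phyb minus Col (-0.58 to 0.19) and with PHYB loss (-0.47 to 0.09), and jaz10 minus Col after MeJA (-0.59 to 0.17). HAT2: jaz10phyb minus phyb in Control (-0.1 without both, -0.15 to 0.25) and after MeJA (-0.01, -0.05 to 0.07), its response (0.01 with quantile normalization and with centring, 0.1 without both, -0.24 to 0.16), response of jaz10phyb minus jaz10 (-0.41 to 0.07), MeJA in jaz10 (-0.42 to 0.05), and phyb MeJA (0.01 with quantile normalization and centring, 0 without both, -0.07 to 0.03) and jaz10phyb MeJA (0.07 and 0.08, -0.06 to 0.05) minus Col Control.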
